A study of Mus musculus with 4 samples.

Results

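CD300 molecules are a family of immunoglobulin-like cell surface receptors found mainly on myeloid cells, and the *Cd300* genes form a cluster on mouse chromosome 11. The genes described here are the 10 of the 25655 genes in the deposited files that are named *Cd300a*, *Cd300lf*, *Cd300lb*, *Cd300c2*, *Cd300e*, *Cd300ld*, *Cd300ld2*, *Cd300ld3*, *Cd300ld4* and *Cd300ld5*, and they were chosen by name. RNA-Seq was used to compare neutrophils of adult male WT and *Cd300a-/-* mice, both on the C57BL/6 background, after myocardial ischemia and reperfusion (MI/R). CD45.2+CD11b+Ly6G+ cells of the heart were sorted, on day 3 after the injury, into SiglecF hi and SiglecF lo neutrophils, which gave 4 groups, WT SiglecF hi, *Cd300a-/-* SiglecF hi, WT SiglecF lo and *Cd300a-/-* SiglecF lo. Each group is 1 library made from cells pooled from 8 mice, so no difference given here has a replicate check, and the values describe these 4 libraries. Neutrophils of mice without MI/R were not analysed here.

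The family is paired, in that inhibitory and activating receptors with similar outer domains are expressed by the same cells. CD300a and CD300lf carry cytoplasmic immunoreceptor tyrosine-based inhibitory motifs (ITIMs), which recruit the phosphatases SHP-1, SHP-2 and SHIP1, and CD300a binds phosphatidylserine and phosphatidylethanolamine exposed on dying cells. Activating members have short cytoplasmic tails and signal through adaptors with an activation motif (ITAM), DAP12 or the Fc receptor γ chain, which lead to the kinase Syk. Where 4 values are listed without names, they stand in the order WT SiglecF hi, *Cd300a-/-* SiglecF hi, WT SiglecF lo and *Cd300a-/-* SiglecF lo, and the 2 libraries of a subset, 1 per genotype, are called its pair. Levels are in TPM, a transcript abundance that is corrected for gene length and scaled to the same total in each library, so levels of different genes can be set side by side. A difference between libraries is given as log2((TPM + 1) ratio) with a 95% counting interval, and a gene was counted as higher or lower when this value passed 0.5 in either direction and its mean TPM over the 4 libraries was over 10. The intervals come from the counts of both libraries and cover counting error only, and since the methods name no molecular identifiers, several reads can be copies of 1 molecule. Counts on all genes summed to 19278243, 17632989, 9631901 and 10988619, so the SiglecF lo libraries were the shallower ones.

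The deleted gene was examined first. *Cd300a* (ENSMUSG00000034652, chromosome 11, 114780867 to 114795480, plus strand, GRCm39 per the submitters' processing notes) had 6640, 27, 3024 and 28 counts. These counts correspond to 163, 0.740, 127 and 1.06 TPM. Both *Cd300a-/-* libraries were low and both WT libraries were high, as their labels say. The log2 genotype ratio (*Cd300a-/-* over WT) was −6.56 (−6.79 to −6.32) for the SiglecF hi pair and −5.95 (−6.23 to −5.67) for the SiglecF lo pair. The residual counts lie on an unknown part of the gene, because the files give 1 value per gene.

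The cells were checked against the sorting markers and against markers of neutrophils and of other cells. *Siglecf* was at 354, 405, 11.3 and 15.3 TPM, high in both SiglecF hi libraries. *Ly6g* was at 11.1, 41.9, 330.4 and 889 TPM, low in both SiglecF hi libraries although all cells were gated on Ly6G. *Itgam*, which encodes CD11b, was at 337, 388, 367 and 550.4 TPM, and *Ptprc*, which encodes CD45, was at its lowest 608 TPM. All 8 neutrophil markers were over 10 TPM in every library, and their summed level was 27768, 32759.7, 154708 and 203225 TPM, most of it in the SiglecF lo libraries. *S100a9*, a subunit of calprotectin, was the most abundant of them at 13719, 15355, 76228 and 89228 TPM. Of 12 macrophage or monocyte markers, all had counts in every library, and 10, 11, 10 and 10 of them were over 10 TPM. Their summed level was 7321, 6576, 2903 and 2756 TPM, higher in the SiglecF hi libraries, and by mean TPM the complement gene *C1qb* led them at 2257, 2036, 839 and 754 TPM. CD300 receptors are also expressed by macrophages and monocytes, and in these bulk libraries fewer cells of a type and less RNA per cell cannot be told apart. The part of macrophage RNA in the family's levels was not tested.

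Markers of other cells were lower, and the leading gene named for each list is the one of highest mean TPM over the 4 libraries. The 3 fibroblast markers summed to 885, 656, 437 and 407 TPM, led by *Dcn* at 586, 465, 302 and 249 TPM. The 6 eosinophil markers summed to 116, 119, 173 and 87.9 TPM, nearly all of it *Ear2*, and *Epx*, which encodes eosinophil peroxidase, was at 0 counts in all 4 libraries. Of the 6 mast cell markers, *Cpa3*, *Mcpt4*, *Tpsb2*, *Cma1* and *Fcer1a* were at 0 counts in all 4 libraries, and *Kit* was lowest at 1.15 TPM in WT SiglecF lo and highest at 13.2 TPM in *Cd300a-/-* SiglecF lo neutrophils. Endothelial markers summed to 56.5, 73.5, 100.7 and 33.1 TPM over 4 genes, led by *Pecam1*. The 3 cardiomyocyte markers, led by *Tnnt2*, summed to 25.6, 33.6, 19.9 and 11.7 TPM, although *Actc1* was the highest of them in both SiglecF lo libraries. Dendritic cell markers summed to 4.51, 7.03, 12.8 and 1.61 TPM over 5 genes, led by *Cd209a*, which was the highest of them in WT SiglecF lo neutrophils alone, at 10.5 TPM, and at 0 in *Cd300a-/-* SiglecF lo neutrophils. *Flt3* was the highest of these in both SiglecF hi libraries, at 1.46 and 3.72 TPM. The 4 B cell markers, led by *Cd79b*, summed to 8.55, 14.2, 5.09 and 6.22 TPM. The 5 T or NK cell markers, led by *Cd3d*, summed to 1.92, 4.63, 4.71 and 4.13 TPM, with *Trac* at 0 in all 4 libraries. Genotype ratios (*Cd300a-/-* over WT) of the markers of other cells are listed for genes over the TPM limit. Past a log2 ratio of 0.5 in the SiglecF hi pair were *Lyve1*, at 0.80, and the collagen gene *Col1a1*, at −0.64. In the SiglecF lo pair the markers over the limit and past 0.5 were *Mrc1* (0.66), *Cx3cr1* (−0.75), *Ms4a7* (−0.69), *Ear2* (−0.98), *Pecam1* (−1.82), *Cdh5* (−1.26) and *Actc1* (−0.86). Markers under the limit also passed 0.5 in both pairs, such as *Kit* (2.73) and *Cd209a* (−3.52) in the SiglecF lo pair.

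The *Cd300a-/-* libraries differed from WT in other genes of the cluster too, in both directions. In SiglecF hi neutrophils, *Cd300ld* was lower in the *Cd300a-/-* library, and *Cd300ld3* and *Cd300ld5* were higher. The same 3 genes passed 0.5 in these directions in SiglecF lo neutrophils, where the inhibitory gene *Cd300lf* was higher too. Of the 10 members, 8 were over the TPM limit, and *Cd300ld2* and *Cd300ld4* were under it. The counts given here leave out *Cd300a*, which was deleted, and *Cd300ld5*, which was over the limit only through its levels in *Cd300a-/-* libraries, a choice made after seeing the data. Of the 6 members left, 2 passed 0.5 in the SiglecF hi pair, beside 6.78% of all 6523 genes tested, and 3 in the SiglecF lo pair, beside 36.3% of all genes tested. The median log2 ratio of these 6 was 0.10 for the SiglecF hi pair and 0.24 for the SiglecF lo pair, beside 0.04 and −0.02 over all genes tested. When each ratio was centred on the median of all genes tested, *Cd300ld3* no longer passed 0.5 in SiglecF hi neutrophils, which left 1 of the 6 there. Counts were present in every library for 8 of the 10 members. Of the 8 neutrophil markers, 2 were higher in *Cd300a-/-* SiglecF hi neutrophils, *Ly6g* (1.82) and *Retnlg* (1.20), and 4 in *Cd300a-/-* SiglecF lo neutrophils, *Ly6g* (1.43), *Retnlg* (0.99), *Mmp9* (0.65) and *Itgam* (0.58), and 0 were lower. Their median log2 ratio was 0.23 and 0.51, and their part in the genotype ratios of the members was not tested.

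**Figure D1:**
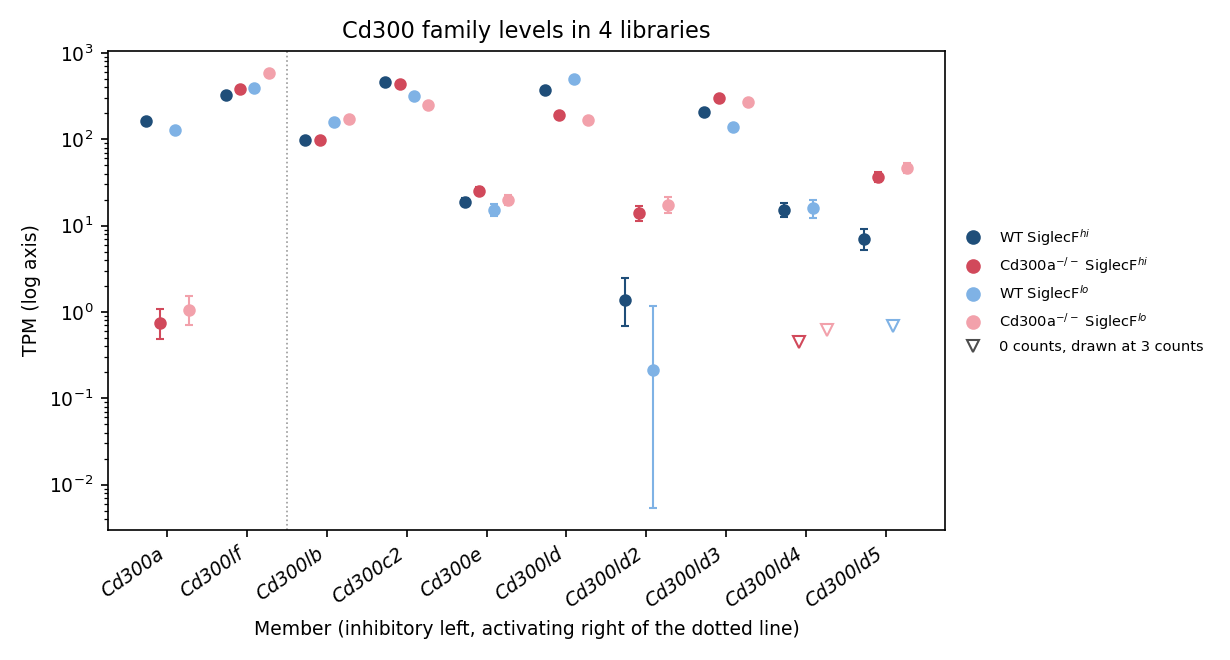
TPM (log axis) of the 10 *Cd300* members in the 4 libraries, with 95% counting intervals as bars, inhibitory members to the left of the dotted line and activating members to its right, and open triangles for 0 counts, drawn at the level of 3 counts. *Cd300a* falls from 163 and 127 TPM in WT to 0.740 and 1.06 TPM in *Cd300a-/-* libraries, and *Cd300ld* from 369 and 503 TPM to 193 and 166 TPM.

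Of the inhibitory members, *Cd300lf* (ENSMUSG00000047798, chromosome 11, 115007040 to 115024818, minus strand) encodes a receptor with ITIMs that is also known to have activating roles. It had 5447, 5725, 3832 and 6191 counts, and its level was 328, 385, 394 and 577 TPM. The *Cd300a-/-* SiglecF lo library stood highest, the WT SiglecF hi library lowest, and the 2 libraries between them had overlapping counting intervals. Ranked by TPM among all genes of each library, *Cd300lf* was at place 492, 424, 389 and 254. The log2 genotype ratio (*Cd300a-/-* over WT) was 0.23 (0.18 to 0.28) in SiglecF hi neutrophils, short of 0.5, and 0.55 (0.49 to 0.61) in SiglecF lo neutrophils. The difference of these ratios was 0.32 (0.24 to 0.40). Among inhibitory transcripts *Cd300lf* made up 66.8% and 75.7% of the summed TPM in the WT SiglecF hi and SiglecF lo libraries, and 99.8% in both *Cd300a-/-* libraries.

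The activating member *Cd300lb* (ENSMUSG00000063193, 114813607 to 114825212 on the minus strand of chromosome 11) encodes a DAP12-coupled receptor, and it lies next to *Cd300a* in the order of the members. Its counts were 2500, 2195, 2312 and 2774, and its level was 98.9, 97.0, 156 and 169.9 TPM. Levels were higher in both SiglecF lo libraries, and the 2 genotypes had overlapping intervals within SiglecF hi neutrophils. The log2 genotype ratio was −0.03 (−0.11 to 0.05) for the SiglecF hi pair and 0.12 (0.04 to 0.20) for the SiglecF lo pair, so the gene nearest in that order to the deleted one did not pass 0.5.

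*Cd300c2* (ENSMUSG00000044811, 114887547 to 114892706, minus strand) encodes another receptor that pairs with DAP12 or the Fc receptor γ chain. With 5170, 4324, 2078 and 1802 counts it reached 462, 432, 317 and 249 TPM, the highest level of any member in both SiglecF hi libraries. Its order was WT SiglecF hi, *Cd300a-/-* SiglecF hi, WT SiglecF lo and *Cd300a-/-* SiglecF lo, with no overlap of neighbouring intervals. Between genotypes, the log2 ratio was −0.10 (−0.16 to −0.04) for the SiglecF hi pair and −0.35 (−0.44 to −0.26) for the SiglecF lo pair, short of 0.5 in both. *Cd300e* (ENSMUSG00000048498, 114942743 to 114953003, minus strand), also DAP12-coupled, was the least abundant of the members with a level over 10 TPM in every library, at 18.7, 25.4, 15.2 and 19.8 TPM. It had 342, 416, 163 and 234 counts. Its log2 genotype ratio was 0.42 (0.23 to 0.62) for the SiglecF hi pair and 0.36 (0.09 to 0.63) for the SiglecF lo pair, and the difference between these, −0.06 (−0.40 to 0.27), was not detectable at this depth.

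The largest fall of an abundant member other than *Cd300a* was in *Cd300ld* (ENSMUSG00000034641, 114873100 to 114880748, minus strand), which encodes a receptor that pairs with the Fc receptor γ chain. It had 8567, 4005, 6837 and 2482 counts, and its level was 369, 193, 503 and 166 TPM. Both WT libraries were above both *Cd300a-/-* libraries, with WT SiglecF lo the highest and *Cd300a-/-* SiglecF lo the lowest. The log2 genotype ratio was −0.93 (−0.99 to −0.88) for the SiglecF hi pair and −1.60 (−1.66 to −1.53) for the SiglecF lo pair. The fall was larger in the SiglecF lo pair beyond counting error, with a difference of −0.66 (−0.75 to −0.58) between the ratios. The gene kept this direction in both subsets with TMM-scaled values and after centring.

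*Cd300ld3* (ENSMUSG00000069607, 114932957 to 114939235, minus strand), which also encodes a receptor of the Fc receptor γ chain, went the other way. Its counts were 1564, 2020, 603 and 1293, and its level was 209, 302, 138 and 268 TPM. Both *Cd300a-/-* libraries were above both WT libraries. Between genotypes, the log2 ratio was 0.53 (0.43 to 0.62) in SiglecF hi neutrophils, or 0.49 after centring, and 0.95 (0.82 to 1.09) in SiglecF lo neutrophils. The difference of the ratios was 0.43 (0.26 to 0.59).

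The remaining genes, *Cd300ld2*, *Cd300ld4* and *Cd300ld5*, were low, and each differed between genotypes by more than the abundant members did, apart from *Cd300a*. *Cd300ld2* (ENSMUSG00000089753, 114901161 to 114907019, minus strand) had 11, 101, 1 and 91 counts, which is 1.37, 14.0, 0.212 and 17.5 TPM. It was near 0 in both WT libraries and over 10 TPM in both *Cd300a-/-* libraries. The plain TPM ratio between genotypes was 10.3 (5.50 to 21.2) for the SiglecF hi pair and 82.5 (14.4 to 3293) for the SiglecF lo pair, the latter resting on 1 count in WT.

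*Cd300ld4* (ENSMUSG00000069609, 114911554 to 114917838, minus strand) had 113, 0, 69 and 0 counts, or 15.1, 0, 15.8 and 0 TPM. It was detected in both WT libraries and in neither *Cd300a-/-* library. Against a floor of 3 counts per library, it was at least 33.7-fold lower without *Cd300a* in the SiglecF hi pair and at least 25.4-fold lower in the SiglecF lo pair. *Cd300ld5* (ENSMUSG00000089722, 114922312 to 114928595, minus strand) had 52, 245, 0 and 225 counts, or 6.96, 36.6, 0 and 46.6 TPM. Both *Cd300a-/-* libraries were high, WT SiglecF hi was lower, and WT SiglecF lo was at 0 counts. Compared with WT, its level in *Cd300a-/-* neutrophils was 5.26-fold (3.89 to 7.24) higher within the SiglecF hi pair and at least 68.0-fold higher within the SiglecF lo pair.

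These genes are near-identical, so the split of reads among them is uncertain. How reads that match several genes were assigned is not given in the sources used here. In GENCODE M21 transcripts (GRCm38), the coding sequences of *Cd300ld4* and *Cd300ld5* were 99.9% identical, with 1 difference in 735 bases. *Cd300ld3* and *Cd300ld5* were 99.6% identical, with 3 differences. *Cd300ld2* was 97.1% identical to *Cd300ld5*, and *Cd300ld* was 85.7% identical to it. Of the 778 windows of 75 bases along the *Cd300ld5* transcript, all 778 were also found in another *Cd300* gene, as were 703 of 778 for *Cd300ld4* and 634 of 778 for *Cd300ld3*. Fewer were shared in *Cd300ld2* (187 of 844), *Cd300c2* (66 of 1113), *Cd300lf* (60 of 1811), *Cd300ld* (60 of 2571) and *Cd300a* (66 of 4571), and none in *Cd300lb* or *Cd300e*. Whether the residual *Cd300a* counts of the *Cd300a-/-* libraries lie in such shared windows is not known. The *Cd300ld5* transcript therefore has no window of this length that tells it from all other members. Only exact matches of windows were compared, and the mismatches allowed in mapping and where reads fell along each gene are not known here. The study's methods name a kit of 75 cycles and paired-end reads, so a single read can be shorter than 75 bases. Shorter stretches can be shared more, so these numbers of windows may understate the sharing between genes. The coding base that separates *Cd300ld4* from *Cd300ld5*, A447G, is shown in capitals within coding bases 417 to 477. Positions are counted from 1 at the A of the start codon, with the *Cd300ld5* base first.
Cd300ld3: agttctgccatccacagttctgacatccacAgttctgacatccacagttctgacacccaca
Cd300ld4: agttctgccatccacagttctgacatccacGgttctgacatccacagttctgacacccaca
Cd300ld5: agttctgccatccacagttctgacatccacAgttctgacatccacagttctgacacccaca

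The start of the coding sequence shows which members can be told apart there. In its first 75 bases, *Cd300ld2*, *Cd300ld4* and *Cd300ld5* are the same, *Cd300ld3* differs from *Cd300ld5* at T15A, A25T and C30T, and *Cd300ld* differs at 6 bases. Capitals mark the bases that differ from *Cd300ld5*.
Cd300ld: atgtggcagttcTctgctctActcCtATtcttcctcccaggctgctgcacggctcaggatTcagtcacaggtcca
Cd300ld3: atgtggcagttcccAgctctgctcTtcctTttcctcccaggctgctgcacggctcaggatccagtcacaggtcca
Cd300ld5: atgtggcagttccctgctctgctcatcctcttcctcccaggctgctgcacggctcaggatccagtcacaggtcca

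Because of this, sums over the near-identical genes were also taken. *Cd300ld4* and *Cd300ld5* together were at 22.1, 36.6, 15.8 and 46.6 TPM, higher in both *Cd300a-/-* libraries. Their log2 genotype ratio was 0.71 (0.43 to 0.98) for the SiglecF hi pair and 1.51 (1.14 to 1.87) for the SiglecF lo pair. *Cd300ld2* to *Cd300ld5* together had 1740, 2366, 673 and 1609 counts and were at 233, 352, 154 and 332 TPM. Apart from small differences in length and any reads left uncounted, this sum does not turn on how reads were divided among the 4 genes, and it was higher in both *Cd300a-/-* libraries, with a log2 ratio of 0.60 (0.51 to 0.69) for the SiglecF hi pair and 1.11 (0.98 to 1.23) for the SiglecF lo pair.

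**Figure D2:**
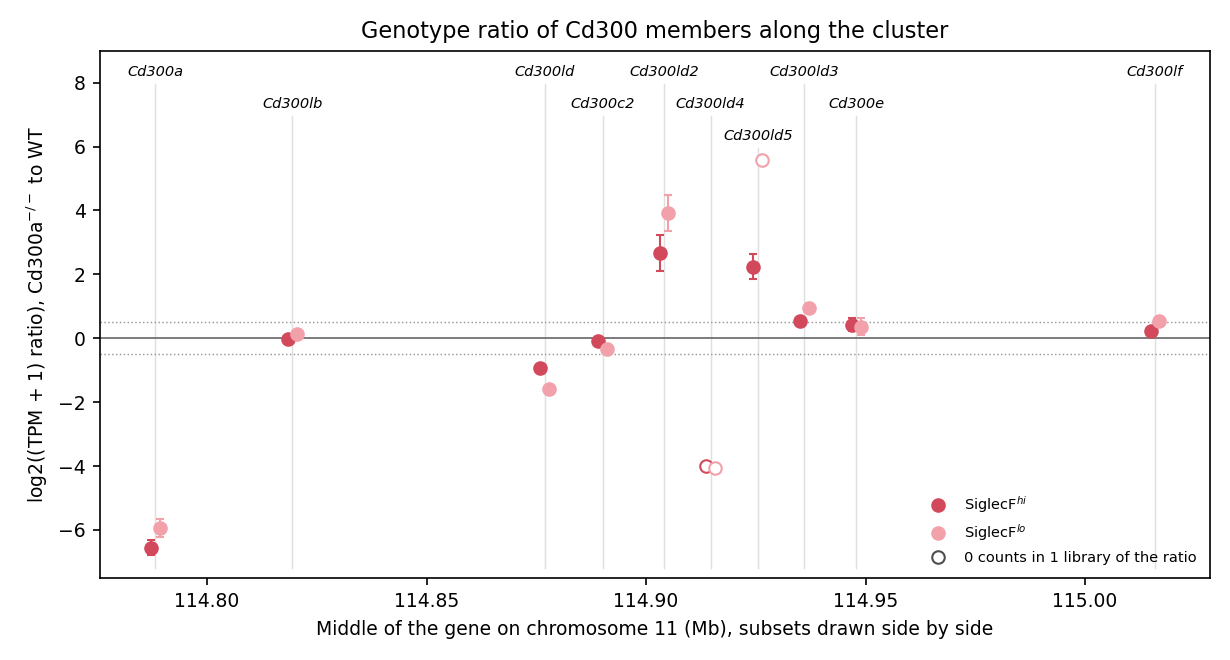
Genotype ratio, log2((TPM + 1) ratio) of *Cd300a-/-* over WT, of each member, at its place on chromosome 11 (Mb), in SiglecF hi (dark) and SiglecF lo (light) neutrophils, with 95% counting intervals as bars, dotted lines at 0.5 in both directions and open circles where 1 library had 0 counts. *Cd300ld* lies at −0.93 and −1.60, *Cd300ld3* at 0.53 and 0.95, and *Cd300lb*, next to *Cd300a*, at −0.03 and 0.12.

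Promoter windows of the members were compared as well. RefSeq windows (GRCm38.p6), from 250 bases before to 50 after the transcription start, were matched for 9 of the 10 members, all but *Cd300ld2*. The windows of *Cd300ld4* and *Cd300ld5* differed at 0 of 300 bases, and that of *Cd300ld3* differed from both at 15. GAGGAAGT, letters that the myeloid transcription factor PU.1 is known to bind, was searched on both strands and was found in 5 members, *Cd300ld*, *Cd300ld3*, *Cd300ld4*, *Cd300ld5* and *Cd300lf*, and in 3.20% of all 32851 windows. By their separate values, the members holding it included *Cd300ld* and *Cd300ld4*, lower in *Cd300a-/-* libraries, as well as *Cd300ld3* and *Cd300ld5*, higher in them. The split of reads between *Cd300ld4* and *Cd300ld5* is uncertain, so opposite directions for these 2 genes cannot be asserted. Their sum was higher in both *Cd300a-/-* libraries, with log2 genotype ratios of 0.71 and 1.51 in the SiglecF hi and SiglecF lo pairs. The stretches of 60 bases around GAGGAAGT are printed from the minus strand, 5′ to 3′, with the match in capitals. The match lies 143 to 136 bases before the start in *Cd300ld* and 187 to 180 bases before it in the others.
Cd300ld: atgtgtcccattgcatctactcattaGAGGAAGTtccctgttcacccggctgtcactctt
Cd300ld3: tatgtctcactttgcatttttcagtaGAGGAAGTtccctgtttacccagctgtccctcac
Cd300ld4: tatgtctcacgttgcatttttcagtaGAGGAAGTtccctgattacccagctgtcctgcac

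Taken by class, the activating members summed to 1181, 1099, 1145 and 936 TPM. The inhibitory members summed to 491, 386, 521 and 578 TPM. Activating transcripts therefore exceeded inhibitory ones in every library, with a ratio of 2.41 (2.35 to 2.47) in WT SiglecF hi, 2.85 (2.76 to 2.94) in *Cd300a-/-* SiglecF hi, 2.20 (2.13 to 2.27) in WT SiglecF lo and 1.62 (1.56 to 1.68) in *Cd300a-/-* SiglecF lo neutrophils. No pair of these intervals overlapped. From WT to *Cd300a-/-*, the ratio changed 1.18-fold (1.14 to 1.23) for the SiglecF hi pair and 0.736-fold (0.702 to 0.772) for the SiglecF lo pair, which are opposite directions. Without *Cd300a* on the inhibitory side the change was 0.793-fold (0.758 to 0.829) and 0.558-fold (0.531 to 0.587), so the direction in SiglecF hi neutrophils turned and both subsets were then lower in *Cd300a-/-*. Without *Cd300ld2* to *Cd300ld5* on the activating side the ratio was 1.93 in WT and 1.94 in *Cd300a-/-* SiglecF hi neutrophils, a difference too small to call a rise, and 1.90 and 1.05 in the SiglecF lo pair.

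The make-up of the activating class differed between libraries. *Cd300c2* was its most abundant gene in WT and *Cd300a-/-* SiglecF hi neutrophils, with 39.1% and 39.3% of activating TPM. *Cd300ld* led in WT SiglecF lo neutrophils with 43.9%, and *Cd300ld3* led in *Cd300a-/-* SiglecF lo neutrophils with 28.6%. *Cd300ld2* to *Cd300ld5* made up 19.7% and 13.4% of activating TPM in the WT SiglecF hi and SiglecF lo libraries, and 32.1% and 35.4% in the *Cd300a-/-* ones. The sum over all members but *Cd300a* was nearly level, at 1509, 1485, 1539.6 and 1514 TPM, with a log2 genotype ratio of −0.02 in both subsets. All 10 members together took 0.167%, 0.149%, 0.167% and 0.151% of the TPM of a library.

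**Figure D3:**
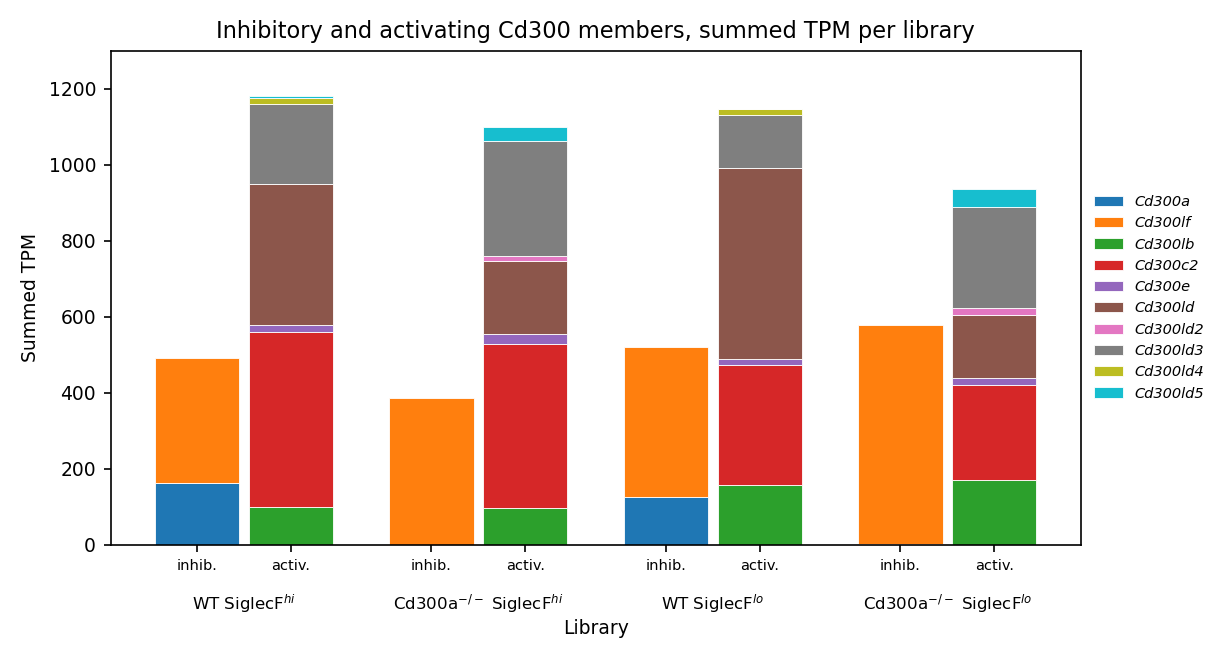
Summed TPM of inhibitory (left bar) and activating (right bar) *Cd300* members in each of the 4 libraries, with each member as a coloured segment. Activating sums are 1181, 1099, 1145 and 936 TPM and inhibitory sums 491, 386, 521 and 578 TPM, with almost all of the inhibitory bar being *Cd300lf* in the *Cd300a-/-* libraries.

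SiglecF hi were next compared with SiglecF lo neutrophils of the same genotype. These comparisons use the same 4 libraries as the genotype comparisons and are not independent of them. The median log2 ratio of all genes tested was 0.53 in WT and 0.61 in *Cd300a-/-* mice, so ratios are given relative to that median unless stated. Of all genes past 0.5 without centring, 87.4% were higher in SiglecF hi neutrophils in WT and 87.7% in *Cd300a-/-* mice, against 48.0% and 47.3% after centring and 48.8% and 52.5% with TMM-scaled values. Without centring, 3 of the 6 members counted above passed 0.5 in WT, beside 59.4% of all genes tested, and 3 in *Cd300a-/-* mice, beside 64.6%. Their median was 0.01 in WT and 0.20 in *Cd300a-/-* mice before centring, below that of all genes in both.

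Relative to the median, 3 of these 6 members passed 0.5 in WT, beside 40.2% of all genes tested, and 2 in *Cd300a-/-* mice, beside 44.8%. *Cd300lb* and *Cd300lf* were lower in SiglecF hi neutrophils in both genotypes. *Cd300lb* was at −1.18 in WT and −1.42 in *Cd300a-/-* mice, or −0.65 and −0.80 before centring. *Cd300lf* was at −0.79 and −1.20, or −0.26 and −0.58 before centring. *Cd300c2* was near the median, at 0.01 and 0.18, although it was higher in SiglecF hi neutrophils before centring, at 0.54 and 0.79. *Cd300e* was at −0.25 and −0.27, a direction that flips to 0.28 and 0.34 without centring.

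For *Cd300ld*, the direction in *Cd300a-/-* mice turned with centring. Relative to the median it was at −0.97 in WT and −0.39 in *Cd300a-/-* mice, lower in SiglecF hi neutrophils in both, whereas the values before centring, −0.45 and 0.22, had opposite directions. *Cd300ld3* was at 0.07 in WT and −0.44 in *Cd300a-/-* mice, or 0.60 and 0.17 before centring, so that centring took the WT value below 0.5 and turned the direction in *Cd300a-/-* mice. *Cd300ld5* was at least 10.1-fold higher in SiglecF hi than in SiglecF lo neutrophils of WT mice in plain TPM, but summed with the near-identical *Cd300ld4* the log2 ratio was 0.46 (0.08 to 0.84), or −0.07 after centring. In *Cd300a-/-* mice the ratio of *Cd300ld5* was −0.34 before and −0.95 after centring. Within WT, *Cd300a* itself was at −0.17, which flips to 0.36 without centring.

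The adaptors of the activating members were abundant in every library. *Tyrobp*, which encodes DAP12, was at 4928, 4742, 6599.8 and 5451 TPM. *Fcer1g*, which encodes the Fc receptor γ chain, was at 2917, 2734, 2836 and 2571 TPM. Each of them exceeded the activating *Cd300* sum in all 4 libraries, and neither passed 0.5 between genotypes. *Hcst*, which encodes the adaptor DAP10, was at 142, 113, 266 and 155 TPM, and it was lower in *Cd300a-/-* SiglecF lo neutrophils, at −0.78 (−0.96 to −0.59). Of the 3 adaptors, 0 passed 0.5 for the SiglecF hi pair and 1 for the SiglecF lo pair, beside 6.78% and 36.3% of all genes tested.

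None of the 3 phosphatases recruited by ITIMs passed 0.5 between genotypes in either subset. Of all genes tested, 6.78% did so in the SiglecF hi pair and 36.3% in the SiglecF lo pair, and with 3 genes this is a description only. *Ptpn6*, which encodes SHP-1, was at 422, 464, 384 and 431 TPM. *Inpp5d*, which encodes SHIP1, was at 142, 154, 105 and 131 TPM. *Ptpn11*, which encodes SHP-2, was the lowest at 29.1, 27.0, 17.4 and 22.3 TPM. Their median log2 genotype ratio was 0.11 for the SiglecF hi pair and 0.32 for the SiglecF lo pair, beside 0.04 and −0.02 over all genes tested.

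Of 5 proximal kinases, *Lyn* was the most abundant by mean TPM at 256, 302, 277 and 345 TPM, and 0 passed 0.5 in SiglecF hi neutrophils. *Syk*, the kinase that binds phosphorylated ITAMs, was at 191, 228, 164 and 251 TPM and was higher in *Cd300a-/-* SiglecF lo neutrophils, at 0.61 (0.56 to 0.66). Of 9 downstream effectors, led by *Grb2* at 243, 257, 213 and 210.3 TPM, 1 was lower in *Cd300a-/-* in the SiglecF hi pair and 0 passed 0.5 in the SiglecF lo pair. That gene was *Lat2*, which encodes a membrane adaptor of myeloid and B cells, at 84.8, 54.5, 39.5 and 51.8 TPM, and its log2 genotype ratio of −0.63 in SiglecF hi neutrophils stood against 0.38 in SiglecF lo neutrophils. Among receptors and adaptors that CD300 members are known to act with, 3 of 4 were tested and 0 passed 0.5 between genotypes. The most abundant of these was *Myd88*, the adaptor of Toll-like receptors, at 234, 305, 214 and 266 TPM. For every list in this paragraph, the share of all genes tested past 0.5 was 6.78% in the SiglecF hi pair and 36.3% in the SiglecF lo pair. With so few genes per list, these counts are a description only.

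Other receptors of the same adaptors were examined as well. Of 16 such genes, 14 were tested, and *Oscar* had 0 counts in all 4 libraries. The most abundant by mean TPM, the C-type lectin gene *Clec4d*, was at 1612, 1449.8, 2981 and 2479.7 TPM, above the whole activating *Cd300* sum in every library. *Clec4e*, at 1462, 1854, 1337 and 1329 TPM, was above that sum in every library too, and above *Clec4d* in *Cd300a-/-* SiglecF hi neutrophils alone. In SiglecF hi neutrophils 0 of 14 passed 0.5 between genotypes, beside 6.78% of all genes tested, and in SiglecF lo neutrophils 3 of 14 did, all lower in *Cd300a-/-*, beside 36.3%. *Fcgr1*, which encodes a high-affinity IgG receptor, was at −1.22 (−1.33 to −1.12) there. *Trem2*, a lipid-binding receptor, fell from 157 to 78.1 TPM. *Sirpb1b* was at −0.65 (−0.71 to −0.58). *Trem2* and *Fcgr1* are also expressed by macrophages, whose summed markers in this pair were at 2903 TPM (WT) and 2756 TPM (*Cd300a-/-*). Of the 11 macrophage or monocyte markers tested, *Cx3cr1* (−0.75) and *Ms4a7* (−0.69) were lower there and *Mrc1* (0.66) was higher, and their part in these ratios was not tested.

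Of 15 other ITIM receptors of myeloid cells, 0 passed 0.5 between genotypes in SiglecF hi neutrophils, and 1 was higher and 2 were lower in *Cd300a-/-* SiglecF lo neutrophils. *Cd33*, a sialic acid-binding lectin, was at 121, 140.0, 145 and 234 TPM, and its log2 genotype ratio was 0.69 (0.63 to 0.74) in SiglecF lo neutrophils. *Cd200r1* was at −0.95 (−1.24 to −0.67) and *Pecam1* at −1.82 (−1.98 to −1.66) in the same comparison. *Pecam1* is also the leading endothelial marker, and of the others *Cdh5* was lower as well, at −1.26, with *Kdr* and *Tek*, both under the TPM limit, at −0.65 and −1.41. The part of endothelial RNA in the ratio of *Pecam1* was not tested. By mean TPM the most abundant of the list was *Lilrb4a* at 275, 355, 372 and 439 TPM. *Cd300lf* was above all 15 in both SiglecF lo libraries and below 2 of them in both SiglecF hi libraries. Over the 52 of 55 genes tested in these 7 lists together, 0 were higher and 1 was lower in *Cd300a-/-* SiglecF hi neutrophils, and 2 were higher and 6 lower in *Cd300a-/-* SiglecF lo neutrophils, beside the same 6.78% and 36.3% of all genes. Between subsets, relative to the median of all genes, 5 of the 52 were higher and 21 lower in SiglecF hi neutrophils of WT mice, beside 1259 higher and 1363 lower, or 40.2%, of all genes tested. In those of *Cd300a-/-* mice 6 were higher and 27 lower, beside 1382 higher and 1540 lower, or 44.8%, of all genes tested. Without centring the balance of the 52 turned, to 13 higher and 10 lower in WT and 12 higher and 7 lower in *Cd300a-/-* mice, beside 3386 higher and 487 lower and 3692 higher and 520 lower of all genes. *Siglecf*, which encodes the protein the subsets were sorted on, is among the higher genes in each of these counts.

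The genes around the cluster were examined for changes near the deleted gene. The members span 114780867 to 115024818, or 244 kb, and 9 of the 10 lie on the minus strand, *Cd300a* being on the plus strand. Within 250 kb on either side, 19 other genes were listed, of which 4 were over the TPM limit. *Tmem104* (115078313 to 115137849, plus strand) was at 40.6, 25.8, 27.6 and 9.93 TPM, lower in *Cd300a-/-* libraries of both subsets. Its log2 genotype ratio was −0.64 (−0.75 to −0.52) for the SiglecF hi pair and −1.39 (−1.58 to −1.19) for the SiglecF lo pair. In the SiglecF lo pair, the ribosomal protein gene *Rpl38* was also lower, at −0.83 (−0.93 to −0.73), as was *Nat9*, at −0.54 (−0.79 to −0.30). Of the 4 neighbours tested, 1 thus passed 0.5 in the SiglecF hi pair, beside 6.78% of all genes, and 3 in the SiglecF lo pair, beside 36.3%, and with 4 genes these counts are a description only.

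*Cd300c* and *Cd300lg* carry the family name but are not among the 10 members. *Cd300c* had 7, 4, 0 and 0 counts, too few for a comparison of genotypes. *Cd300lg* (ENSMUSG00000017309, chromosome 11, 101932335 to 101946446, plus strand) lies outside the cluster and is known from endothelial cells. It had 311, 328, 218 and 19 counts, or 12.9, 15.3, 15.5 and 1.23 TPM, so the *Cd300a-/-* SiglecF lo library alone was low. The log2 genotype ratio was 0.22 (0.01 to 0.43) for the SiglecF hi pair and −2.89 (−3.29 to −2.49) for the SiglecF lo pair. The 4 endothelial markers were also lowest in that library, at 33.1 TPM against 100.7 TPM in WT SiglecF lo neutrophils, with *Pecam1* at 15.6 against 57.5 TPM, and their part in this difference was not tested.

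Finally, the genes whose levels ran closest to the 3 most abundant members other than *Cd300a* were taken from the 6522 other genes tested, by the root mean square difference of centred log2(TPM + 1) over the 4 libraries. For *Cd300lf* they were *Arhgap15* (0.02), *Mdm1* (0.03) and *Sbno2* (0.03), and 59 genes were closer than 0.1. For *Cd300c2* they were *Rpl21* (0.01), *Srp14* (0.01) and *Mrpl46* (0.02), and 285 genes were closer than 0.1. For *Cd300ld* they were *Hnmt* (0.14), *Fam162a* (0.18) and *Plvap* (0.21), and 0 genes were closer than 0.1. The pattern of *Cd300c2* over 4 libraries was therefore shared by many genes, and that of *Cd300ld*, low in both *Cd300a-/-* libraries, was not matched within 0.1 by any gene tested. This measure takes in the size of the differences as well as their shape, so members that vary more tend to have fewer genes within 0.1. The numbers of close genes therefore do not compare shape alone.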

How the data were processed

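The processed RNA-Seq values of 4 sorted neutrophil libraries of the heart were used, 1 per group. The labels call the sorted cells SiglecF-positive and SiglecF-negative, and these are named SiglecF hi and SiglecF lo here. The study's methods name CLC Genomics Workbench for TPM, after paired-end sequencing of poly(A)-selected RNA prepared with a NEBNext Ultra II kit. Counts were deposited by the authors as whole numbers per gene without normalization. The authors also deposited RPKM, scaled for gene length and depth, and TPM, scaled for length so that each library has the same total. A signal named CPM was deposited too, which is the depth-scaled counts times 1 factor per library, and it was not used. How reads matching several genes were assigned, the strand setting and the annotation release are not given in the sources used here. The genome build, GRCm39, is taken from the submitters' processing notes.

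TPM and counts were used as deposited, and RPKM was read only to scale counts to TPM. For each of 4 comparisons, log2((TPM + 1) ratio) was computed with a 95% Poisson counting interval. Genes with a mean TPM over 10 were tested against a threshold of 0.5, and a count of 0 was given as a bound against 3 counts. Such bounds leave out the counting error of the library that holds counts. Class ratios are summed TPM of 8 activating over 2 inhibitory members, and the classes are background knowledge. A search of the proteins for ITIMs was not run. Alternatives were a pseudocount of 0.1, TMM-scaled CPM, centring on the median of all genes tested, a mean TPM over 1, a TPM over 10 in at least 1 library, no filter, a log2 threshold of 1, class ratios without named members and class ratios from counts. Alternatives chosen after seeing the data were *Cd300ld2* to *Cd300ld5* summed as 1 gene, and counts of members without *Cd300a* and *Cd300ld5*.

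The genes named are all 10 members, *Cd300lg*, the sorting markers, the adaptors and ITIM phosphatases, from the other lists the most abundant gene by mean TPM and those past 0.5 in a genotype comparison, neighbours within 250 kb past 0.5 in a genotype comparison, and for each of the 3 most abundant members other than *Cd300a* the 3 genes of the closest pattern. Genes past 0.5 in this rule are those over the TPM limit, and genes of the lists at 0 counts in all 4 libraries are named too. *Flt3*, *Clec4e*, *Kdr* and *Tek* were named after their values were seen. *Cd300c*, which the rule for neighbours takes as a gene of the family name, is given by counts. The members and the lists, 7 of signalling genes and 10 of cell type markers, were chosen with earlier results of these data known. The PU.1 letters and the printed sequences were chosen after the values were seen. Coding sequences came from GENCODE M21 and promoter windows from RefSeq. The calculations were tested on simulated counts. Python 3.11.15, numpy 2.4.6, pandas 2.3.3, scipy 1.17.1, matplotlib 3.10.9, Biopython 1.88, R 4.3.3 and edgeR 4.0.16 were used.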

Additional observations from a re-analysis of the deposited data

Results flagged for a closer look

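Genotype ratios were compared between the 2 subsets for the members, *Cd300lg*, the adaptors, the ITIM phosphatases, the gene of highest mean TPM in each list of signalling genes or cell type markers, and the genes of those lists or near the cluster that passed 0.5 between genotypes. Subset ratios were compared between the 2 genotypes for the members alone. A gene is given here when its 2 values had opposite directions, with both past 0.5 or both counting intervals clear of 0, a mean TPM over 10 and more than 3 counts in every library. Other genes of the lists were left out of this comparison, and some of them meet the same rule. For each of them the difference between the 2 values was beyond counting error, and with 1 library per group it was not tested against the spread between mice. *Cd300ld* had a log2 subset ratio (SiglecF hi over SiglecF lo) of −0.45 in WT and 0.22 in *Cd300a-/-* mice, and after centring the 2 values had the same direction, −0.97 and −0.39. *Cd300lg* had a log2 genotype ratio (*Cd300a-/-* over WT) of 0.22 for the SiglecF hi pair and −2.89 for the SiglecF lo pair, or 0.21 and −3.11 with TMM-scaled values. After centring these were 0.18 (−0.03 to 0.39) and −2.88, so the interval for the SiglecF hi pair then held 0. *Lat2* had a genotype ratio of −0.63 for the SiglecF hi pair and 0.38 for the SiglecF lo pair, or −0.64 and 0.41 with TMM-scaled values. *Pecam1* had a genotype ratio of 0.38 for the SiglecF hi pair and −1.82 for the SiglecF lo pair, or 0.37 and −1.84 with TMM-scaled values. The endothelial marker *Cdh5* also ran in opposite directions, at 0.48 and −1.26, and was at 0.47 and −1.29 with TMM-scaled values. Of the other endothelial markers, both under the TPM limit, *Kdr* was at 0.31 and −0.65 and *Tek* at 0.07 and −1.41. Both were lower in the SiglecF lo pair, and *Tek* was hardly changed in the SiglecF hi pair. The part of the endothelial markers in the ratios of *Pecam1* was not tested. The fibroblast marker *Col1a1* was at −0.64 for the SiglecF hi pair and 0.22 for the SiglecF lo pair, or −0.66 and 0.24 with TMM-scaled values. The macrophage marker *Mrc1* was at −0.067 and 0.66, or −0.08 and 0.70 with TMM-scaled values.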

How the results depend on the processing

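Within 1 comparison no paired test was possible, because each group has 1 library and 2 groups form 1 pair. A fit of genotype over all 4 libraries with subset as a block, which leaves 1 residual degree of freedom, was not run. The count of members past the threshold stayed within 1.5 times its value in 30 of 36 combinations of comparison and alternative. These counts include *Cd300a* and *Cd300ld5*, and leaving both out, which was chosen after seeing the data, took the genotype counts from 4 and 5 of 8 to 2 and 3 of 6. The other 4 were those with a log2 threshold of 1. Between genotypes it left 2 of 8 members in the SiglecF hi pair, beside 0.705% of all genes, and 3 in the SiglecF lo pair, beside 9.37%. These were *Cd300a* and *Cd300ld5* in both pairs, and *Cd300ld* in the SiglecF lo pair. Of the 6 members without *Cd300a* and *Cd300ld5*, *Cd300ld* alone thus passed, in the SiglecF lo pair. Between subsets the threshold left 1 member in WT, *Cd300ld5*, beside 23.3% of all genes, and 0 in *Cd300a-/-* mice, beside 30.3%. A like count did not mean the same genes. Between subsets, TMM-scaled values and centring each kept 2 of the 4 members past 0.5 in WT, losing *Cd300c2* and *Cd300ld3* and gaining *Cd300ld* and *Cd300lf*, and 2 of the 3 in *Cd300a-/-* mice, losing *Cd300c2* and gaining *Cd300a* and *Cd300ld5*. With no filter, a mean TPM over 1, or any 1 library over 10 TPM, *Cd300ld2* and *Cd300ld4* entered and both passed 0.5 between genotypes in each subset. Of all genes, 10.4% and 25.2% passed 0.5 in the SiglecF hi and SiglecF lo pairs with no filter. These shares were 15% and 45.1% with a mean TPM over 1, and 9.26% and 39.3% with any 1 library over 10 TPM. Under the last filter *Cd300ld2* entered only through *Cd300a-/-* libraries and *Cd300ld4* only through WT libraries. With *Cd300ld2* to *Cd300ld5* summed as 1 gene, also chosen after seeing the data, 3 and 4 of 7 passed 0.5 between genotypes, *Cd300a* among them, beside 6.76% and 36.3% of all genes. Of 96 recomputed member ratios, 57 stayed within their counting interval, 39 moved and 0 of the values past 0.5 changed sign. Of 196 counts in gene lists, 161 stayed within 1.5 times. The ratio of activating to inhibitory TPM moved in 14 of 16 recomputed values. Without *Cd300a* it was 3.60 in WT SiglecF hi and 2.91 in WT SiglecF lo neutrophils. Without *Cd300lf* it was 7.25, 1486, 9.04 and 880.5 in WT SiglecF hi, *Cd300a-/-* SiglecF hi, WT SiglecF lo and *Cd300a-/-* SiglecF lo neutrophils, since *Cd300a* alone is then the divisor. Without *Cd300ld2* to *Cd300ld5* it was 1.93, 1.94, 1.90 and 1.05 in the same order, and from counts 1.52, 2.31, 1.76 and 1.43. The count of all genes past the threshold moved by over 1.5 times under 4 alternatives. It was 442, 2367, 3873 and 4212 in the genotype comparisons of SiglecF hi and SiglecF lo and the subset comparisons of WT and *Cd300a-/-*, and 46, 611, 1520 and 1975 at a log2 threshold of 1. With a mean TPM over 1 it was 1716, 5178, 7317 and 7619, and without a filter 2674, 6476, 8813 and 8996. With any 1 library over 10 TPM it was 709 in SiglecF hi neutrophils between genotypes. Depth limits the low members, *Cd300ld2*, *Cd300ld4* and *Cd300ld5*, and 3 counts in the *Cd300a-/-* libraries correspond to 0.448 and 0.621 TPM of *Cd300ld4*. The intervals hold no spread between mice.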
